A study of Homo sapiens with 5 samples.

Results

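The genes described here encode 9 transcription factors that guide lymphocyte development (RUNX1, RUNX2, RUNX3, MYB, BACH2, TCF7, LEF1, BCL11B and ZBTB16) and CBFB, the partner subunit of the RUNX proteins. All 10 were chosen by symbol, and each matched 1 of the 57221 rows of the count table. RNA was sequenced from NK92MI, an interleukin 2 independent human line of natural killer (NK) cells made by introducing an IL2 gene. Cells were kept for 48 h in DMSO, the solvent (2 libraries), or in 10 µM UNC1999 (3 libraries), an inhibitor of EZH2 and EZH1, which methylate histone H3 at lysine 27. Every library comes from this 1 line. The labels do not name separate cultures, and the p-values therefore measure the spread between these libraries only, which may be technical.

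RUNX proteins bind DNA through their runt domain and bind it more tightly when paired with CBFB, which makes no DNA contact of its own. RUNX3 is the family member best known in NK and cytotoxic T cells, and RUNX1 is needed from blood stem cells onward. MYB keeps blood progenitors dividing, TCF7 and LEF1 are HMG-box factors that can recruit beta-catenin, and BACH2 is a repressor that competes with AP-1 for DNA. BCL11B is required for T cell commitment, and ZBTB16 (PLZF) marks innate-like lymphocytes and their precursors.

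Counts assigned to genes totalled 8442908 to 8748106 per library. UNC1999 replicate 2 lay apart from the other libraries of its group (chi-square per degree of freedom 7.47 and 8.77, against 1.81 between replicates 1 and 3). Of 20 NK cell markers 19 had counts, NCR3 was at 0, and KLRF1 and TYROBP had at most 2 and 7 counts. NK markers summed to 7793 to 7992 CPM in DMSO and 7040 to 7889 CPM in UNC1999, where CPM is the library-size scaled count (edgeR CPM with TMM factors). At 0 in all 5 libraries were CD3D, CD3G, CD4 and CD8B (T cells), MS4A1 (B cells), and LYZ and SPI1 (myeloid cells). Other markers of these cells had counts in every library: CD3E 5190 to 5760 and TRAC 726 to 975 (T cells), PAX5 149 to 219 (B cells) and ITGAM 234 to 328 (myeloid cells).

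RUNX3 and CBFB stood above the other genes of this group in NK92MI, and UNC1999 moved its members little. RUNX3 was the most abundant gene per length, followed by CBFB; RUNX1, BCL11B and RUNX2 lay lower, MYB lower still, BACH2 and TCF7 had at most 13 counts, and LEF1 and ZBTB16 had none. With UNC1999, RUNX1 and BCL11B fell and MYB rose, each by less than 1.5-fold, while RUNX2, RUNX3, CBFB and BACH2 did not pass the test. That test, edgeR's quasi-likelihood F-test with Benjamini-Hochberg adjustment over all 13075 genes that had enough counts, covered 7 of the 10 members. Of these, 1 was higher and 2 were lower, beside 15.7% higher, 19.5% lower and 35.2% either way among all genes tested, so the members' counts were near that background. Their median log2 fold change (UNC1999 over DMSO) was -0.026 and that of all tested genes -0.012. The members' median is the value of BACH2, which had at most 13 counts, and so says little about the group. The 3 calls depended on the processing: of 17 alternatives, RUNX1 lost its call in 4, MYB in 8 and BCL11B in 13. Without normalization factors or with upper-quartile factors, RUNX1 and BCL11B were not called, and RUNX2 and CBFB were called higher.

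Sequences before starts of the 3 RUNX genes are printed as a description. RUNX genes are known to have a distal and a proximal promoter, and counts summed per gene cannot tell them apart. RefSeq (GRCh38.p14) gave windows of 250 bases before the start for 8 of the 10 members (11 windows), among them 1 for RUNX1 and a pair each for RUNX2 and RUNX3. The letters TGTGGT, a core of RUNX binding sites, were searched on both strands and were present in 11% of 35116 windows and in 8.7% of the 12259 windows of tested genes. The outer windows of RUNX2 and RUNX3 held 2 matches each, a number that 0.971% of all windows reached, while their inner windows and the RUNX1 window held 0. The parts outside annotated exons are printed below, with capitals for the match as it reads on the gene's strand. The first of the RUNX2 matches (191 bases before the start) falls inside them, and the other is at 87. Both RUNX3 matches (131 and 123 bases before the start) fall inside them too. RUNX1 is given as a window without a match. That window lies inside the RUNX1 gene, as the inner windows of RUNX2 and RUNX3 lie inside theirs.
RUNX3, chr1:24965122-24965260, minus strand: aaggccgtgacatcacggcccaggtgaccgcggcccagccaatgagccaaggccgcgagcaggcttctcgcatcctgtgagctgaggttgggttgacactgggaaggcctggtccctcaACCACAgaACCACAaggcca
RUNX2, chr6:45328080-45328156, plus strand: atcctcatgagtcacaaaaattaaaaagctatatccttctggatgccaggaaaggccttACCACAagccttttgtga
RUNX1, chr21:34888700-34888949, minus strand: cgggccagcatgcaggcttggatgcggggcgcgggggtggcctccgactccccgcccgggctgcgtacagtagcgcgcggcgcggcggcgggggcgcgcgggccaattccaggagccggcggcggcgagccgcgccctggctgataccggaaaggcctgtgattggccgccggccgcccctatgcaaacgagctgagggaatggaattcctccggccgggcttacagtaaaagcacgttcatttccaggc
A match of letters is a description and not a binding site. The outer RUNX2 window had a GC content of 41.6% and 0 CpG dinucleotides, and that of RUNX3 67.6% and 13. The RUNX1 window had 71.2% and 32, and the inner windows 78% and 34 (RUNX2) and 78.4% and 33 (RUNX3). Medians over the windows of tested genes were 64% and 20. With no outer window for RUNX1, a difference between the genes and one between outer and inner starts cannot be told apart here. LEF1 was the only other member with the RUNX letters (1 match). The TCF and LEF letters CTTTGA (11.2% of all windows) and the MYB letters TAACNG (17.6%), also searched on both strands, were in 0 of the 8 members with a window.

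Levels of different genes were compared as CPM per kilobase of merged exons in GENCODE 29. In DMSO these were 76.1 for RUNX3, 35.5 for CBFB, 9.42 for RUNX1, 5.55 for BCL11B, 4.60 for RUNX2, 1.33 for MYB, 0.0940 for BACH2 and 0.0425 for TCF7. From RUNX3 down to MYB no neighbours in this order overlapped between the DMSO libraries. BACH2 and TCF7 rest on 3 to 10 counts per DMSO library, and in UNC1999 their libraries overlapped. BCL11B and RUNX2 traded places in UNC1999, with 4.34 to 4.76 for BCL11B and 5.18 to 6.06 for RUNX2. Per kilobase of the longest transcript RUNX1 was at 20.2 and TCF7 at 0.0801 in DMSO, both over 1.5 times the values above. RUNX2 (6.41) already stood above BCL11B (5.73) on that scale, so their order there depends on the length used.

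**Figure D1:**
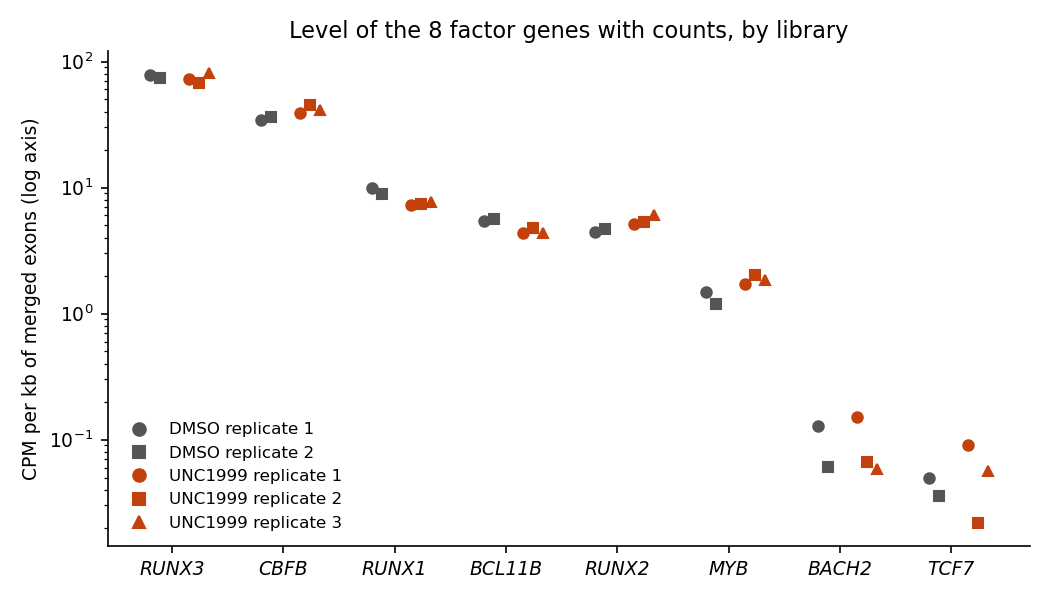
CPM per kb of merged exons (log axis) in each of the 5 libraries for the 8 genes with counts; grey marks are DMSO and orange marks UNC1999, and circles, squares and triangles are replicates 1, 2 and 3. RUNX3, at a mean of 76.1 in DMSO, is highest and BACH2 (0.0940) and TCF7 (0.0425) are lowest; LEF1 and ZBTB16, at 0, cannot be shown on a log axis.

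RUNX1 lies on chromosome 21 from 34787801 to 36004667 (minus strand, GRCh38, as for all positions here). It had 155.7 and 137.8 CPM in DMSO and 112.4, 116.2 and 120.4 CPM in UNC1999. All 3 UNC1999 libraries were below both DMSO libraries. RUNX1 fell from 146.7 ± 12.7 to 116.4 ± 4.02 CPM (SD, n = 2 and 3), a log2 fold change of -0.33 ± 0.11 (SE; 95% interval -0.55 to -0.11; adjusted p = 0.0145 in edgeR). With offsets that take out each library's trend with GC content and transcript length, RUNX1 was still lower (-0.20, adjusted p = 0.0322 in edgeR). The call was lost when DMSO replicate 1, where RUNX1 was highest, was left out (-0.25, adjusted p = 0.274 in edgeR), and when UNC1999 replicate 1, where it was lowest, was left out (-0.30, adjusted p = 0.0883 in edgeR).

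RUNX2, best known as the master factor of bone formation and also present in lymphocytes, lies on chromosome 6 from 45328157 to 45664349 (plus strand). It had 36.6 and 38.7 CPM in DMSO and 42.4, 43.4 and 49.6 CPM in UNC1999. Each UNC1999 library was above both DMSO libraries. The log2 fold change of 0.26 ± 0.12 (SE; 95% interval 0.014 to 0.51) missed the threshold (adjusted p = 0.0931 in edgeR). RUNX2 was called higher with GC and length offsets (0.38, adjusted p = 0.00298 in edgeR) and when UNC1999 replicate 2 was left out (0.30, adjusted p = 0.0213 in edgeR).

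RUNX3, on chromosome 1 from 24899511 to 24965121 (minus strand), had 350.9 and 337.5 CPM in DMSO and 328.8, 304.4 and 365.1 CPM in UNC1999. The UNC1999 libraries spread around the DMSO values, replicate 2 being lowest and replicate 3 highest. The log2 fold change was -0.049 ± 0.11 (SE; adjusted p = 0.766 in edgeR), and its 95% interval ran from -0.27 to 0.17. That interval includes 0, the value with offsets was 0.0035, and no direction is given for RUNX3.

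CBFB, on chromosome 16 from 67029116 to 67101058 (plus strand), had 143.0 and 150.5 CPM in DMSO and 159.8, 185.3 and 168.9 CPM in UNC1999. Each UNC1999 library was above both DMSO libraries, and replicate 2 was the highest. The log2 fold change of 0.22 ± 0.11 (SE; 95% interval 0.00051 to 0.45) missed the threshold (adjusted p = 0.113 in edgeR), and with offsets it was 0.026 (adjusted p = 0.811 in edgeR). Fold changes varied with GC content across the 10038 protein-coding genes tested, with decile medians from 0.41 (decile 1) to -0.37 (decile 6). CBFB, with a transcript GC content of 40.6%, falls in decile 2, whose median log2 fold change was 0.37. RUNX1 (47.1%) and RUNX2 (46.2%) share decile 5, whose median was -0.30. The part of GC content in the CBFB values was not tested beyond the offsets.

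**Figure D2:**
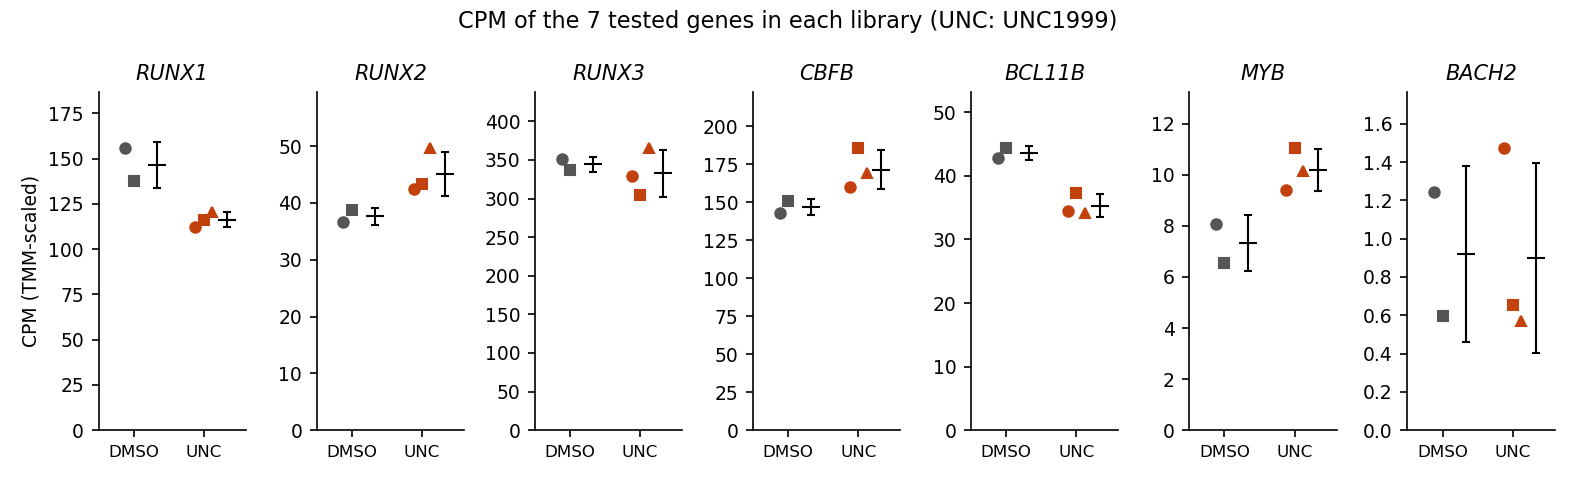
CPM (linear axes from 0) of the 7 tested genes in each library, grey for DMSO and orange for UNC1999, with circles, squares and triangles for replicates 1, 2 and 3 and black bars for mean and SD. RUNX1 and BCL11B are lower in all 3 UNC1999 libraries, RUNX2, CBFB and MYB are higher in all 3, and the groups overlap for RUNX3 and BACH2.

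Groups without overlap were common: 24.2% of tested genes were higher in every UNC1999 library than in both DMSO libraries and 30.4% were lower, beside 3 and 2 of the 7 tested members.

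Levels within the RUNX family were also compared inside each library. RUNX2 counts divided by RUNX1 counts, a ratio that needs no scaling between libraries, came to 0.235 and 0.281 in DMSO and 0.378, 0.373 and 0.412 in UNC1999. Every UNC1999 ratio was above both DMSO ratios. The means were 0.258 ± 0.0326 and 0.388 ± 0.0212 (SD, n = 2 and 3), a log2 difference of 0.59. A two-sided exact permutation test, which takes 2 times the smaller one-sided p, gave p = 0.2. That is the smallest p this form of the test can give with 2 against 3 libraries, so no ratio here can pass a threshold of 0.05. The 6 ratios and shares computed within the family were chosen after the values had been seen, and the Benjamini-Hochberg adjusted p of this exact test over them is 0.24. CBFB counts divided by RUNX1 counts came to 0.918 and 1.09 in DMSO and 1.42, 1.59 and 1.40 in UNC1999, again without overlap (two-sided exact permutation p = 0.2, the smallest possible). CBFB and RUNX1 lie in GC deciles 2 and 5, and with offsets their log2 fold changes were 0.026 and -0.20, closer together than the 0.22 and -0.33 without, so the difference between the groups in this ratio is smaller once the GC and length trends are taken out. Of the summed CPM per kb of the RUNX genes, RUNX3 held 84.3% and 84.6% in DMSO and 85.4%, 84.1% and 85.4% in UNC1999, and these overlapped (two-sided exact permutation p = 0.6). RUNX1 held 10.9% and 10.0% in DMSO and 8.48%, 9.32% and 8.18% in UNC1999. RUNX2 held 4.85% and 5.36% in DMSO and 6.09%, 6.61% and 6.41% in UNC1999. These shares depend on the length used. Per kilobase of the longest transcript RUNX3 held 74.5% to 75.3% in DMSO and 75.0% to 77.1% in UNC1999, RUNX1 18.3% to 19.7% in DMSO and 15.2% to 17.1% in UNC1999 and RUNX2 5.74% to 6.38% in DMSO and 7.34% to 7.89% in UNC1999.

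**Figure D3:**
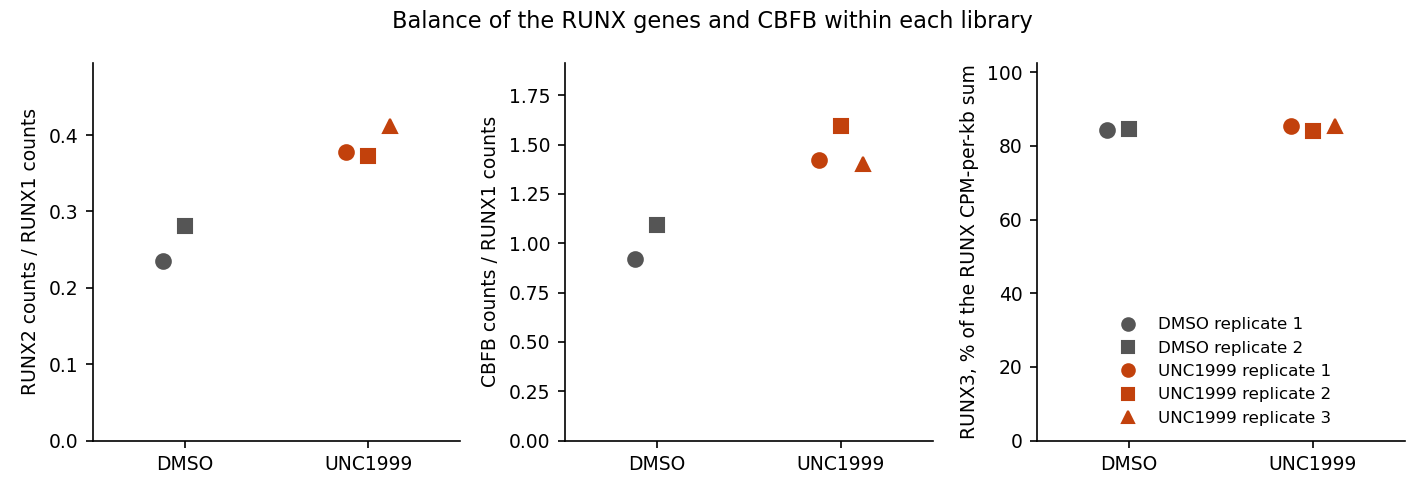
Ratios within each library, on axes that start at 0, grey for DMSO and orange for UNC1999, with circles, squares and triangles for replicates 1, 2 and 3: RUNX2 counts over RUNX1 counts, CBFB counts over RUNX1 counts, and the percent of the summed RUNX CPM per kb held by RUNX3. Both ratios are higher in every UNC1999 library (0.373 to 0.412 and 1.40 to 1.59) than in DMSO, and the RUNX3 share stays between 84.1% and 85.4%.

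BCL11B, a zinc finger repressor gene on chromosome 14 from 99169287 to 99271524 (minus strand), had 42.8 and 44.3 CPM in DMSO and 34.5, 37.4 and 34.1 CPM in UNC1999. All 3 UNC1999 libraries were below both DMSO libraries. BCL11B fell from 43.6 ± 1.08 to 35.3 ± 1.78 CPM (SD, n = 2 and 3; log2 fold change -0.30 ± 0.12 SE, 95% interval -0.54 to -0.061), just inside the threshold (adjusted p = 0.0453 in edgeR). It was not called with offsets (-0.11, adjusted p = 0.383 in edgeR) and lost the call in 13 of 17 alternatives. With UNC1999 replicate 1 or 3 left out, the call was lost (adjusted p = 0.148 and 0.141 in edgeR). It held without UNC1999 replicate 2 (-0.33, adjusted p = 0.00827 in edgeR). Fits without DMSO replicate 1 or 2 rest on 1 DMSO library and gave -0.33 and -0.28. BCL11B, with a transcript GC content of 49.7%, falls in GC decile 6, whose median log2 fold change was -0.37. The part of GC content in the BCL11B values was not tested beyond the offsets. BCL11A, its close relative, had at most 1 count in any library.

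MYB, on chromosome 6 from 135181315 to 135219173 (plus strand), had 65 and 55 counts in DMSO and 83, 101 and 89 in UNC1999. This is 8.09 and 6.55 CPM in DMSO and 9.39, 11.0 and 10.2 CPM in UNC1999, and every UNC1999 library was above both DMSO libraries. MYB rose from 7.32 ± 1.09 to 10.2 ± 0.821 CPM (SD, n = 2 and 3), or 1.39-fold (log2 fold change 0.48 ± 0.18 SE, 95% interval 0.11 to 0.85; adjusted p = 0.0392 in edgeR), and it was called with offsets too (0.52, adjusted p = 0.0172 in edgeR). The call was lost in 8 of 17 alternatives, among them DESeq2 (adjusted p = 0.110). With replicate 1 or 2 of DMSO or replicate 2 or 3 of UNC1999 left out, the adjusted p in edgeR was, in that order, 0.0615, 0.331, 0.0647 and 0.0597. The antisense gene MYB-AS1, with at most 12 counts in a library, overlaps 1.88% of the MYB exon length, and without a stated strand setting reads there cannot be told apart.

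BACH2, on chromosome 6 from 89926529 to 90296908 (minus strand), had 10 and 5 counts in DMSO and 13, 6 and 5 in UNC1999. The groups overlapped. Its log2 fold change of -0.026 had a 95% interval of -1.11 to 1.06, so a change of up to about that size could not be seen at this depth. TCF7, on chromosome 5 from 134114711 to 134151865 (plus strand), had 4 and 3 counts in DMSO and 8, 2 and 5 in UNC1999, too few to be tested. Its exons overlap SKP1, a ubiquitin ligase gene on the opposite strand with up to 588 counts, over 2.09% of their length.

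LEF1 (chromosome 4, 108047545 to 108168956, minus strand) and ZBTB16 (chromosome 11, 114059593 to 114250676, plus strand) had 0 counts in all 5 libraries. A count of 0 allows up to 3 counts per library, or 0.343 to 0.355 CPM without TMM scaling. That limit covers counting error only, and not reads left unassigned. The relatives TCF7L1 and TCF7L2 were not at 0, with 1 to 4 and 0 to 5 counts per library.

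**Figure D4:**
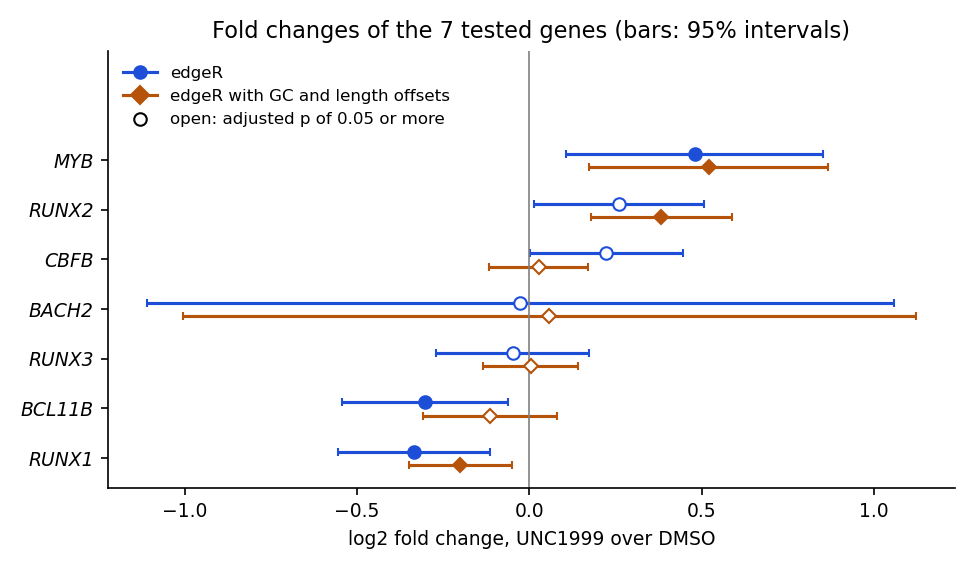
Log2 fold changes (UNC1999 over DMSO) of the 7 tested genes with 95% intervals, from edgeR without (circles) and with (diamonds) offsets for GC content and transcript length; filled marks have an adjusted p under 0.05. RUNX1 (-0.33 and -0.20) and MYB (0.48 and 0.52) are filled in both, RUNX2 (0.26 and 0.38) only with offsets, and BCL11B (-0.30 and -0.11) only without.

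With offsets, 2 of the 7 tested members were higher (RUNX2 and MYB) and 1 was lower (RUNX1), beside 15.1% higher, 19.1% lower and 34.2% either way of the 11024 genes in that fit. RUNX1 and MYB were called the same way in both fits.

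Relatives of the members come from the same protein families, apart from RUNX1T1, which shares a name with RUNX1 and not its family. Of 12 listed genes 8 were tested, with 3 higher, 0 lower and a median log2 fold change of 0.18 (with offsets 2 and 1, median 0.091). Values given for single genes in these groups, unless in counts or CPM, are log2 fold changes. The called genes of every list below, marker lists included, are to be read beside the shares over all tested genes. These were 15.7% higher and 19.5% lower, and 15.1% and 19.1% with offsets. No list was tested as a set. BACH1, a heme-sensing repressor, had 54 and 61 counts in DMSO and 102, 112 and 120 in UNC1999 and rose by 0.83 ± 0.18 (SE) on the log2 scale (adjusted p = 0.00034 in edgeR; 0.43 with offsets). MYBL1 rose by 0.56 (adjusted p = 0.000342 in edgeR), but with offsets it had 0.15 and was not called (adjusted p = 0.202). ZBTB32, a zinc finger gene that restrains lymphocyte activation, rose from 139.2 ± 7.27 to 189.1 ± 27.6 CPM (SD, n = 2 and 3; log2 fold change 0.44, 0.41 with offsets), and the call was lost when DMSO replicate 1 was left out (adjusted p = 0.105 in edgeR). MYBL2, the cell cycle MYB gene, had 0.16 and RUNX1T1 -0.35; neither was called, and both are named after their values were seen.

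Among cofactors and corepressors of RUNX proteins, 14 of 19 listed genes were tested, with 2 higher, 0 lower and a median log2 fold change of 0.018 (with offsets 2 and 1, median 0.11). KMT2A, the MLL histone methyltransferase gene, had 518 and 547 counts in DMSO and 965, 953 and 922 in UNC1999. It rose from 64.8 ± 0.512 to 106.2 ± 2.699 CPM (SD, n = 2 and 3; log2 fold change 0.71 ± 0.11 SE, 0.65 with offsets; adjusted p = 6.09e-06 in edgeR). TLE2, a Groucho corepressor gene, had 0.57 (adjusted p = 0.0464 in edgeR), but its groups overlapped and it lost the call in 7 of 17 alternatives, among them the offsets and the fits that left out DMSO replicate 1, DMSO replicate 2 or UNC1999 replicate 1 (0.31 to 0.80 with 1 library left out, adjusted p up to 0.340).

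For coactivators of MYB and proteins of its turnover, 13 of 13 listed genes were tested, with 2 higher and 3 lower. That is 15.4% and 23.1%, near the 15.7% and 19.5% of all tested genes. The median log2 fold change was -0.16 (with offsets 2 and 4, median -0.084). FBXW7, whose ubiquitin ligase can degrade MYB, had 136 and 159 counts in DMSO and 226, 250 and 240 in UNC1999 and rose by 0.58 (0.69 with offsets; adjusted p = 0.00103 in edgeR). CEBPB, a bZIP factor that cooperates with MYB, fell from 477.3 ± 29.6 to 341.5 ± 39.7 CPM (SD, n = 2 and 3; log2 fold change -0.48, -0.63 with offsets). WDR5, a partner of KMT2A, fell (log2 fold change -0.39, -0.21 with offsets), with the call lost when DMSO replicate 1 was left out (adjusted p = 0.0837 in edgeR). KMT2A, described above, is also on this list.

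Small MAF, NRF and AP-1 genes encode products that pair or compete with BACH2. Of 18 listed genes 15 were tested, with 3 higher (20%) and 4 lower (26.7%), beside 15.7% and 19.5% of all tested genes. The median log2 fold change was -0.014 (with offsets 5 and 5, median 0.038). MAF had 38 and 37 counts in DMSO and 19, 19 and 13 in UNC1999 and fell by 1.25 ± 0.28 (SE) on the log2 scale (adjusted p = 0.000589 in edgeR; -1.13 with offsets). MAFG, which encodes a small MAF partner of BACH proteins, fell from 114.6 ± 1.91 to 76.9 ± 2.51 CPM (SD, n = 2 and 3; log2 fold change -0.58, -0.56 with offsets). FOSB, an AP-1 gene, had 12 and 23 counts in DMSO and 44, 51 and 54 in UNC1999 and rose by 1.38 ± 0.28 (SE; adjusted p = 0.000172 in edgeR; 1.44 with offsets). For MAF, MAFG and FOSB the calls held in all alternatives in which they were tested, 16 for MAF and FOSB and 17 for MAFG.

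Genes of the beta-catenin pathway, through which TCF7 and LEF1 can activate, gave this count: 19 of 25 listed genes were tested, with 3 higher, 2 lower and a median log2 fold change of 0.10 (with offsets 3 and 5, median -0.011). APC, a scaffold of the complex that destroys beta-catenin, had 89 and 95 counts in DMSO and 231, 204 and 231 in UNC1999 and rose by 1.15 ± 0.15 (SE; adjusted p = 3.15e-07 in edgeR), or 0.65 with offsets. TNKS2, a tankyrase gene, had 247 and 273 counts in DMSO and 481, 493 and 458 in UNC1999 and rose by 0.76 (0.57 with offsets). CSNK1E, a casein kinase gene, and BCL9, a beta-catenin cofactor gene, fell (log2 fold changes -0.44 and -0.45), and both calls were lost when DMSO replicate 1 was left out (adjusted p = 0.0709 and 0.396 in edgeR). AXIN2, a feedback target of the pathway, had at most 1 count and is named after that was seen.

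NuRD is a chromatin remodelling and deacetylase complex that binds BCL11B: 13 of 13 listed genes were tested, with 0 higher, 3 lower and a median log2 fold change of -0.17 (with offsets 0 and 6, median -0.17). MBD2, a reader of methylated DNA, fell from 134.0 ± 6.23 to 95.7 ± 8.36 CPM (SD, n = 2 and 3; log2 fold change -0.48, -0.37 with offsets). HDAC1, a deacetylase gene, fell from 546.5 ± 6.06 to 388.5 ± 34.4 CPM (log2 fold change -0.49), and with offsets the change was smaller (-0.17, adjusted p = 0.0438 in edgeR). CHD4, the remodelling ATPase gene, had 88 and 136 counts in DMSO and 65, 76 and 62 in UNC1999 (log2 fold change -0.84). DMSO replicate 2 was its highest library, and the CHD4 call was lost when that library was left out (adjusted p = 0.0872 in edgeR).

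Among corepressors that ZBTB16 is known to use, 9 of 9 listed genes were tested, with 2 higher, 2 lower and a median log2 fold change of 0.060 (with offsets 1 and 3, median -0.021). TBL1X, an NCOR complex subunit gene, had 3224 and 2916 counts in DMSO and 1693, 1879 and 1675 in UNC1999 and fell by 0.93 ± 0.11 (SE) on the log2 scale (adjusted p = 4.33e-08 in edgeR; -0.77 with offsets). Its paralog TBL1XR1 rose by 0.58 (adjusted p = 0.000134 in edgeR) but had 0.086 with offsets and was not called there (adjusted p = 0.461). NCOR1 rose by 0.51, a call lost when DMSO replicate 1 was left out (adjusted p = 0.146 in edgeR). HDAC3 (-0.31) kept its call in 8 of 17 alternatives and had 0.0027 with offsets. The HDAC3 call was lost with replicate 1 or 2 of DMSO or replicate 1 or 3 of UNC1999 left out (-0.35 to -0.27 with 1 library left out, adjusted p up to 0.235).

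Among lymphocyte genes known as RUNX targets, 9 of 17 listed genes were tested, with 0 higher, 2 lower and a median log2 fold change of -0.080 (with offsets 1 and 1, median 0.014). EOMES, which encodes a T-box factor of NK cells, had 1399 and 1406 counts in DMSO and 842, 991 and 905 in UNC1999 and fell by 0.74 ± 0.11 (SE) on the log2 scale (adjusted p = 1.86e-06 in edgeR; -0.42 with offsets). ITGAE, an integrin gene, was just inside the threshold (-0.32, adjusted p = 0.0428 in edgeR) and lost the call in 13 of 17 alternatives, including those without replicate 1 or 2 of DMSO or replicate 1 or 3 of UNC1999 (adjusted p up to 0.204). The killing genes GZMB (-0.19) and PRF1 (0.25) and the cytokine receptor gene IL2RB (-0.023) were not called and are named after their values were seen. PRF1 was called higher with offsets (0.25, adjusted p = 0.00432 in edgeR).

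Among genes known as MYB targets, 10 of 12 listed genes were tested, with 2 higher, 5 lower and a median log2 fold change of -0.29 (with offsets 2 and 3, median -0.12); without normalization factors 2 were lower and with upper-quartile factors 3. CDK6, a cell cycle kinase gene, had 693 and 809 counts in DMSO and 1936, 1868 and 1882 in UNC1999 and rose by 1.22 ± 0.11 (SE; adjusted p = 8.03e-10 in edgeR; 0.69 with offsets). MYC had 1474 and 1477 counts in DMSO and 703, 825 and 823 in UNC1999 and fell by 1.03 ± 0.11 (SE) on the log2 scale (adjusted p = 7.85e-09 in edgeR; -0.77 with offsets). CXCR4, a chemokine receptor gene, fell from 328.6 ± 20.1 to 211.5 ± 21.4 CPM (SD, n = 2 and 3; log2 fold change -0.64, -0.58 with offsets). CCNE1, the cyclin E gene, had -0.49 (adjusted p = 0.0116 in edgeR) but -0.19 with offsets, not called, and the call was lost with DMSO replicate 2 or UNC1999 replicate 3 left out (adjusted p up to 0.242). Calls of CDK6, MYC and CXCR4 held in all 17 alternatives.

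Among BACH2 targets, 6 of 10 listed genes were tested, with 0 higher, 2 lower and a median log2 fold change of -0.16 (with offsets 1 and 0, median 0.038); 0 were lower without normalization factors. PRDX1, a peroxiredoxin gene, had -0.36 (adjusted p = 0.00889 in edgeR) and GATA3, a lymphocyte zinc finger factor gene, had -0.36 (adjusted p = 0.0164 in edgeR). With offsets these were -0.017 and -0.098, neither called, and both calls were also lost with DMSO replicate 1, DMSO replicate 2 or UNC1999 replicate 1 left out (adjusted p up to 0.153 and 0.175). PRDM1, a gene BACH2 is known to repress, had -0.13, was not called, and is named after its value was seen.

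Among TCF7 and LEF1 targets, 11 of 14 listed genes were tested, with 1 higher, 4 lower and a median log2 fold change of -0.14 (with offsets 2 and 3, median -0.098). MYC and EOMES, described above, are on this list. ID3, an inhibitor of E proteins, had 158 and 158 counts in DMSO and 138, 100 and 121 in UNC1999 and fell (log2 fold change -0.52, -0.42 with offsets), with the call lost when DMSO replicate 1 was left out (adjusted p = 0.0752 in edgeR). KIT, the stem cell factor receptor gene, had 16 and 8 counts in DMSO and 36, 27 and 22 in UNC1999 and rose by 1.11 ± 0.36 (SE; adjusted p = 0.0129 in edgeR; 0.97 with offsets). The KIT call was lost in DESeq2 and with DMSO replicate 2 or UNC1999 replicate 1 left out (adjusted p up to 0.277 in edgeR).

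Among genes of the PLZF program of innate-like lymphocytes, 8 of 14 listed genes were tested, with 1 higher, 3 lower and a median log2 fold change of -0.10 (with offsets 1 and 2, median -0.097). IKZF2, the Helios gene, had 338 and 353 counts in DMSO and 721, 655 and 727 in UNC1999 and rose by 0.90 ± 0.12 (SE; adjusted p = 3.77e-07 in edgeR), or 0.36 with offsets. ID2, required for innate lymphocytes, fell from 282.7 ± 20.2 to 185.5 ± 19.1 CPM (SD, n = 2 and 3; log2 fold change -0.61, -0.32 with offsets). SYK, a kinase gene, had -0.35 and lost the call in 13 of 17 alternatives, among them each fit with 1 library left out except UNC1999 replicate 2 (adjusted p up to 0.247 in edgeR). SH2D1B, an adaptor gene of NK receptors, had -0.37 with groups that overlapped, and lost the call in 7 of 17, among them the fits with DMSO replicate 1, UNC1999 replicate 1 or UNC1999 replicate 3 left out (-0.58 to -0.12 with 1 library left out, adjusted p up to 0.661 in edgeR).

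**Figure D5:**
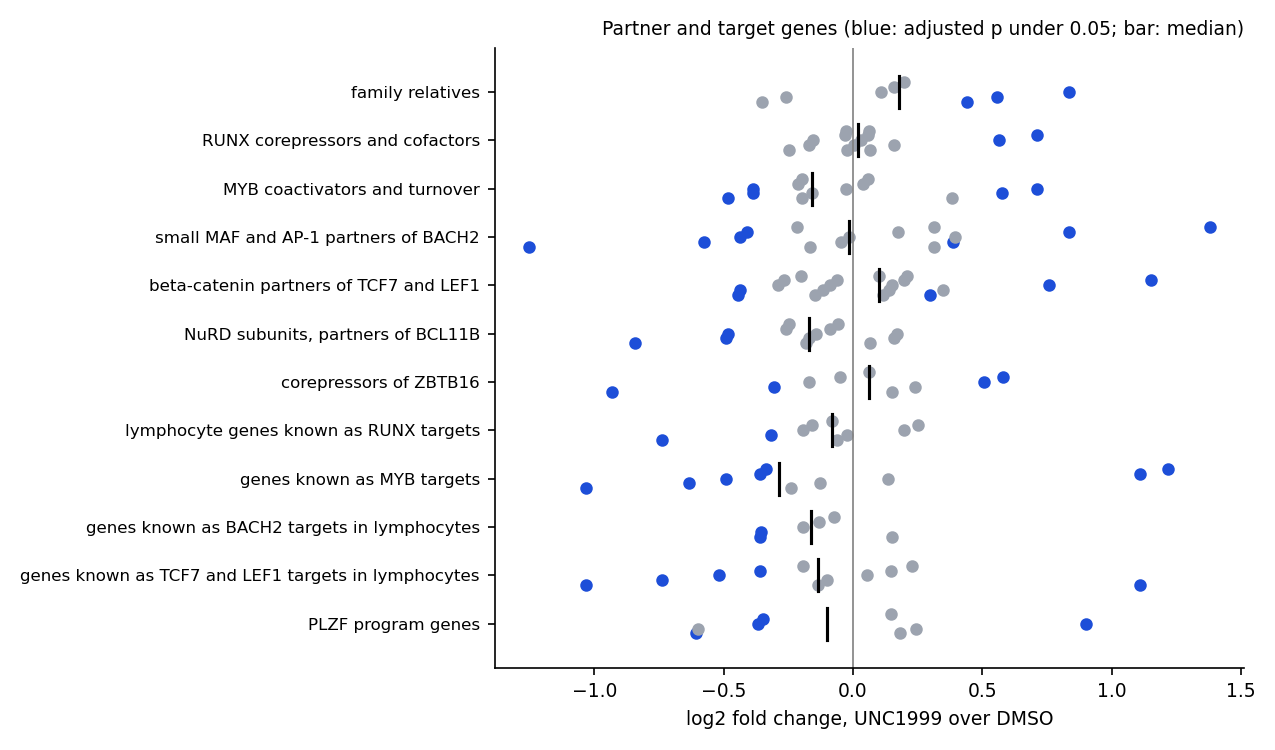
Log2 fold changes (UNC1999 over DMSO) of the tested genes on the 12 lists of relatives, partners and targets, 1 point per gene; blue points have an adjusted p under 0.05 and black bars are the medians. Medians run from -0.29 (MYB targets) to 0.18 (relatives).

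Several of these medians changed sign with the processing, namely those of the MAF and AP-1 genes, the beta-catenin genes, the ZBTB16 corepressors, the RUNX targets, the BACH2 targets and the PLZF program, so that no direction is given for these lists as a whole.

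The 6 markers of other innate lymphoid cells summed to 10.8 to 11.1 CPM in DMSO and 17.1 to 19.6 CPM in UNC1999; IL7R was at 0, and the 3 that were tested, IL1R1, KIT and AHR, were all called higher. IL1R1, an interleukin receptor gene, had 42 and 39 counts in DMSO and 72, 72 and 70 in UNC1999 (log2 fold change 0.70, 0.69 with offsets), a call lost with DMSO replicate 2 left out (adjusted p = 0.0951 in edgeR). AHR, the aryl hydrocarbon receptor gene, had 0.67, was not called with offsets (0.22), and lost the call with DMSO replicate 1 left out (adjusted p = 0.343 in edgeR).

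Among NK markers, 17 of 20 listed genes were tested, with 1 higher, 3 lower and a median log2 fold change of -0.12 (with offsets 3 and 4, median 0.0045). CD7, a surface receptor gene, had 418 and 402 counts in DMSO and 939, 637 and 806 in UNC1999 and rose by 0.84 (0.68 with offsets; adjusted p = 7.35e-06 in edgeR). EOMES and ID2 fell, as given above. NFIL3, a factor needed for NK development, had -0.38 but -0.12 with offsets, not called, and lost the call with DMSO replicate 1, DMSO replicate 2 or UNC1999 replicate 1 left out (adjusted p up to 0.0828 in edgeR).

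T cell markers, 6 of 10 with a count, summed to 777.2 to 816.5 CPM in DMSO and 670.4 to 765.4 CPM in UNC1999, and of 4 tested 1 was higher and 2 lower (median -0.23; with offsets 2 and 1, median 0.13; without normalization factors 1 and 0). CD3E, named after its values were seen, was the most abundant and had -0.10, not called, but was called higher with offsets (0.27, adjusted p = 0.00666 in edgeR). CD6 had 13 and 13 counts in DMSO and 39, 25 and 27 in UNC1999 (log2 fold change 1.10). TRAC had -0.37 (-0.011 with offsets, not called) and CD28 -0.43. Leaving out DMSO replicate 2 ended all 3 calls, DMSO replicate 1 those of CD6 and CD28, UNC1999 replicate 1 that of CD6, and UNC1999 replicate 3 those of TRAC and CD28 (adjusted p up to 0.0821, 0.136 and 0.144 in edgeR for CD6, TRAC and CD28). B cell markers, 4 of 6 with a count, summed to 24.2 to 26.0 CPM in DMSO and 17.7 to 25.1 CPM in UNC1999, with PAX5 (-0.25) not called. Myeloid markers, 5 of 7 with a count, summed to 41.1 to 46.0 and 33.6 to 42.3 CPM, with ITGAM (-0.29) not called. The part of these marker values in the members' values was not tested, and in bulk RNA fewer cells of a kind and less RNA per cell cannot be told apart.

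Genes most like RUNX1 and MYB were found among 9313 genes by the Euclidean distance of their log2 CPM over the 5 libraries, after each gene's mean was removed. Nearest to RUNX1 were LIMD1 (distance 0.0194), PEX5 (0.0253) and FAM168A (0.0552), against a median distance of 0.480. Nearest to MYB were MTRF1 (0.0851), PPIL4 (0.108) and MED14 (0.109), against a median of 0.698. The distances rest on 5 libraries and describe them only.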

How the data were processed

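The labels' protocols name Trizol for RNA and an NEBNext Ultra kit for the libraries. The authors deposited raw read counts per gene symbol. The submitters' processing notes list the genome build hg19 and the tools fastp, STAR 2.7.9, HTSeq 0.13.5 and edgeR 3.34.0, with no roles. Neither annotation nor strand setting is given in the sources used here. No member was among the 222 symbols on several rows.

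Genes kept by filterByExpr were tested with edgeR 4.0.16 (R 4.3.3): TMM factors, glmQLFit, the quasi-likelihood F-test, and Benjamini-Hochberg adjustment over 13075 genes with a threshold of 0.05. SEs divide the log2 fold change by the root of F. Distances use log2 CPM with a prior count of 2. The offsets are splines in GC content (6 degrees of freedom) and longest transcript length (4), fitted per library, on the 11024 tested genes found in GENCODE 29 (84.3%). GENCODE 29 and RefSeq use GRCh38, and no coordinates were converted. Alternatives included DESeq2 1.42.0 and limma-voom (limma 3.58.1). The scripts were tested on simulated data.

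Members, lists and alternatives were chosen with earlier results of these data known. From each list the text names at most 4 called genes by p (the fourth from the other direction where all went one way), or the most abundant where none was called, and the 3 nearest genes for the called member of smallest p in each direction.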

Additional observations from a re-analysis of the deposited data

How the results depend on the processing

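Log2 fold changes of RUNX1, RUNX2, CBFB, MYB and BCL11B kept their direction in all 17 alternatives, while RUNX3 changed sign in 4 and BACH2 in 8 of 15. Without normalization factors RUNX1 had -0.23, RUNX2 0.36, RUNX3 0.054, CBFB 0.33, BACH2 0.077 and BCL11B -0.20, and with upper-quartile factors -0.26, 0.33, 0.020, 0.29, 0.043 and -0.23; RUNX2 and CBFB were then called, and RUNX1 and BCL11B were not. With offsets RUNX2 had 0.38 (called), RUNX3 0.0035, BACH2 0.058 and BCL11B -0.11 (not called). BCL11B was not called with DESeq2 size factors (-0.28), with no filter (-0.30), with a stricter filter (-0.26) or in DESeq2 (-0.28), nor MYB with no filter (0.48) or in DESeq2 (0.50). With 1 library left out, the ranges were -0.42 to -0.25 for RUNX1, 0.19 to 0.31 for RUNX2, -0.12 to 0.022 for RUNX3, 0.17 to 0.28 for CBFB, 0.33 to 0.63 for MYB, -0.47 to 0.58 for BACH2 and -0.33 to -0.28 for BCL11B.

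Against 1 member higher and 2 lower, 3 and 0 were called without factors and with upper-quartile factors, and 2 and 1 with offsets. Calls were 0 and 1 with no filter and in DESeq2, and 1 and 1 with the stricter filter and with DESeq2 size factors. With 1 UNC1999 library left out they were 0 to 1 and 0 to 2. Without UNC1999 replicate 2 they were 1 and 2, but the higher member was RUNX2 (adjusted p = 0.0213 in edgeR). MYB was not called in that fit (adjusted p = 0.0647 in edgeR). Over all genes, 2057 were higher and 2546 lower, and with 1 library left out 1159 to 2862 and 1368 to 3030; both were lowest without DMSO replicate 1, and without DMSO replicate 2 they were 1311 and 1669. The median of all genes moved by 0.10 without factors. Of 136 list counts under other scalings or offsets, 97 stayed within 1.5 times and 39 did not. The cause of these differences was not tested.

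Replicate numbers are shared by 2 pairs of libraries, whose deviations correlated at 0.0658 and 0.0381. With 2 DMSO libraries the deviations mirror each other, and the crossed pairs had -0.0658 and -0.0381. This check therefore cannot tell whether libraries of the same number were paired, and the labels give only the number. With a replicate block MYB had 0.48, BCL11B -0.28 and BACH2 0.20, none called, and 0 members were higher and 1 lower. With the replicate block and offsets together MYB had 0.49, BCL11B -0.10 and BACH2 0.29, members were 0 and 1, and 1087 genes were higher and 1538 lower. BACH2 and TCF7 have too few counts for a modest change to be seen.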
